A study of Canis lupus familiaris with 29 samples.

Results

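The cadherins and catenins described here are 8 genes, 4 cadherins (CDH1, CDH2, CDH6 and CDH16) and 4 catenins (CTNNA1, CTNNB1, CTNND1 and JUP), out of 24223 genes measured by RNA sequencing. They were chosen by gene name, each name had 1 row, and all 8 were among the 11774 genes that reached 1 FPKM in at least 2 libraries and were tested. The cells were MDCKII, an established line of epithelial cells from dog kidney, and 29 libraries fell into 13 groups. Cells carrying an AVL9 knockdown (AVL9-KD) were taken at seeding (day 0) and on day 4 of 2D culture on transwell inserts, with 2 libraries each. Cells carrying a DENND5A knockdown (DENND5A-KD) were taken at day 0 and on days 4 and 7 of 2D culture, also with 2 libraries each. Wild-type cells were taken at day 0 (4 libraries), as 3D cysts on matrigel at 24 h and on days 3, 5 and 8 (2 each) and day 14 (1), and as 2D cultures on days 4 and 11 (3 each). The knockdown libraries carry the numbers 1 and 4 (AVL9-KD) or 1 and 2 (DENND5A-KD), which the labels do not describe as clones, hairpins or guides, and the samples hold no control line that went through knockdown. Nothing in the labels says that replicates came from separate cultures. The p-values therefore reflect the spread between these libraries, which may be technical.

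Classical cadherins are transmembrane proteins that bind the same cadherin on the neighbouring cell through calcium-dependent ectodomains. Inside the cell, beta-catenin or its relative plakoglobin links the cadherin tail to alpha-catenin, which binds actin, while p120 catenin binds the part of the tail nearest the membrane and keeps the cadherin at the surface. E-cadherin is the main cadherin of adherens junctions in polarized epithelia, N-cadherin is typical of neural and mesenchymal cells, and beta-catenin also acts as a transcriptional coactivator in Wnt signalling. Kidney tubules also express K-cadherin, encoded by CDH6, and kidney-specific cadherin, encoded by CDH16, which has a short cytoplasmic tail without the catenin-binding site.

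Values are FPKM, which scale fragments by transcript length and library size, so levels of different genes can be set side by side. Each fold change is given as a difference in log2(FPKM + 1) with its standard error (SE), tested with limma and called at an adjusted p under 0.05, and this scale understates the change of genes with low FPKM. DENND5A read 1.88 to 2.02 FPKM in DENND5A-KD cells at day 0, against 4.98 to 6.89 FPKM in wild-type cells. AVL9 read 5.70 to 7.21 FPKM in AVL9-KD cells at day 0, against 22.2 to 23.7 FPKM in wild-type cells. At 2D day 4, too, each targeted gene was below all wild-type libraries in the cells labelled with its knockdown. In wild-type cells 5 libraries differed from the rest and are referred to as standing apart. They were the library of 3D day 14 and the first replicate at day 0, in cysts of days 3 and 8 and in 2D cultures of day 4. In the other 24, TIMM13 read 30.9 to 397 FPKM and RPS27L 0 to 1.37 FPKM. The 5 were picked by these genes, as the libraries with TIMM13 listed at 0 and RPS27L above 10 FPKM. Their relative depth was 0.441 to 0.707, against 0.824 to 1.09 in the 14 remaining wild-type libraries and 0.543 to 1.68 in knockdown libraries. Summed over 10 measured epithelial markers, FPKM was 917 to 1743 per library, while all 6 fibroblast and all 5 endothelial markers in the files stayed under 1 FPKM in every library. Of 5 leukocyte markers, PTPRC, CD3E, CD68 and LYZ stayed under 1 FPKM, and CD74 alone carried the sum of 262 to 1518 FPKM. In bulk RNA of this kind, fewer cells with a transcript and less of it per cell cannot be told apart.

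E-cadherin was the most abundant cadherin at day 0 and fell in cysts. CDH1 (ENSCAFG00000020305) read 247, 251, 244 and 208 FPKM in wild-type cells at day 0. It read 194 and 184 FPKM at 24 h on matrigel, 115 and 105 FPKM on day 3, 93.9 and 95.9 FPKM on day 5, 73.8 and 60.2 FPKM on day 8 and 97.3 FPKM in the day 14 library. On inserts it read 184, 182 and 134 FPKM on day 4 and 211, 209.8 and 182 FPKM on day 11. Every 3D library was below every day 0 library, every 3D library from day 3 on was below every 2D library, and the 2D day 11 libraries overlapped those of day 0. The log2 fold change against day 0 was -1.10 ± 0.16 (SE) on 3D day 3, -1.31 ± 0.16 on day 5 and -1.81 ± 0.16 on day 8, with adjusted p from limma of 1.66e-05, 1.35e-06 and 1.49e-08. At 24 h the difference was -0.33 ± 0.16 (adjusted p = 0.394). Of the 10 tested epithelial markers, which do not include CDH1, 7 were lower and 2 higher on 3D day 8, with a median log2 fold change of -0.71 against -0.13 over all tested genes, and their part in the result was not tested. On inserts CDH1 fell by 0.52 ± 0.14 at day 4 (adjusted p = 0.00382), and at day 11 the difference was -0.24 ± 0.14 with a 95% interval of -0.54 to 0.06 (adjusted p = 0.164). The day 11 difference passed with median-ratio scaling (-0.25, adjusted p = 0.0432) and with the replicate number as a fixed block (-0.30, adjusted p = 0.0278). Across the 13 groups, CDH1 was lowest in the cysts of days 8, 5, 14 and 3, in rising order, and these 4 groups did not overlap each other. The 9 groups above them formed one chain of overlapping neighbours, with 2D day 4 at its low end (167 ± 28.4 FPKM, SD, n = 3) and AVL9-KD cells at 2D day 4 at its high end (276 ± 80.3 FPKM, SD, n = 2).

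Kidney-specific cadherin had the widest range of the 8 genes and rose in both kinds of culture. CDH16 (ENSCAFG00000020397) read 0.121, 0.210, 0.186 and 0.362 FPKM in wild-type cells at day 0 and 0.483 and 0.352 FPKM at 24 h on matrigel. In later cysts it read 3.70 and 3.52 FPKM on day 3, 7.81 and 9.53 FPKM on day 5, 12.7 and 10.5 FPKM on day 8 and 16.2 FPKM in the day 14 library. On inserts it read 66.1, 39.6 and 49.6 FPKM on day 4 and 37.3, 36.0 and 40.2 FPKM on day 11. Each 3D time point from day 3 on lay wholly above the one before it, and every 2D library lay above every 3D library. The log2 fold change against day 0 was 1.92 ± 0.36 on 3D day 3 (adjusted p = 0.000198), 2.99 ± 0.36 on day 5 (adjusted p = 9.9e-07) and 3.37 ± 0.36 on day 8 (adjusted p = 1.45e-07). On inserts it was 5.41 ± 0.32 on day 4 and 4.99 ± 0.32 on day 11, with adjusted p of 1.91e-10 and 1.24e-09. As a plain ratio of mean FPKM, CDH16 stood 52.9 times as high on 3D day 8 and 172 times as high on 2D day 11 as at day 0. Of the 12 pairs of neighbours in its order of 13 group means, 7 did not overlap, more than for any of the other 7 genes, which had 1 to 4 such pairs. It was highest in DENND5A-KD cells at 2D day 7 (64.2 ± 6.28 FPKM, SD, n = 2) and lowest in AVL9-KD cells at day 0 (0.0398 ± 0.0075 FPKM, SD, n = 2).

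N-cadherin was a minor cadherin of wild-type cells and fell in late cysts. CDH2 (ENSCAFG00000018115) read 7.88, 4.05, 1.67 and 1.94 FPKM in wild-type cells at day 0. It read 1.77 and 1.42 FPKM at 24 h on matrigel, 3.27 and 0.766 FPKM on day 3, 0.994 and 0.422 FPKM on day 5, 0.900 and 0.0931 FPKM on day 8 and 1.11 FPKM in the day 14 library. On inserts it read 6.88, 1.74 and 1.73 FPKM on day 4 and 1.54, 1.69 and 1.28 FPKM on day 11. The first value given for day 0, for cysts of days 3 and 8 and for 2D cultures of day 4 comes from a library that stands apart, and each of these was above all others of its group, by 0.80 to 1.53 on the log2 scale. The cysts of days 5, 8 and 14 lay below all day 0 libraries, and the other wild-type groups overlapped them. CDH2 fell by 1.36 ± 0.46 on 3D day 5 (adjusted p = 0.0153) and by 1.59 ± 0.46 on day 8 (adjusted p = 0.00513) in the limma fit. Without the 5 libraries it fell by 1.02 (adjusted p = 0.0044) and by 1.64 (adjusted p = 0.000785), and then the day 3 difference of -0.95 also passed (adjusted p = 0.0383). With the day 14 library left out and a term in the fit for the rest of these libraries, CDH2 fell by 1.04 on day 5 (adjusted p = 0.00154) and by 1.91 on day 8 (adjusted p = 2.2e-06). The day 5 call was lost without day 5 replicate 3 (adjusted p = 0.131) and the day 8 call without day 8 replicate 2 (adjusted p = 0.0963). On inserts the differences from day 0 were -0.15 ± 0.40 on day 4 and -0.79 ± 0.40 on day 11, neither of which passed as deposited. The day 11 difference passed with quantile normalization (-0.98, adjusted p = 0.0327) and with the replicate number as a block, by duplicateCorrelation (-0.83, adjusted p = 0.0348) or as a fixed term (-0.98, adjusted p = 0.00258), but not without the 5 libraries (-0.45, adjusted p = 0.132). In its order of 13 group means, AVL9-KD cells at day 0 stood alone at the top (31.0 ± 8.83 FPKM, SD, n = 2), DENND5A-KD cells at day 0 and AVL9-KD cells at 2D day 4 overlapped below them, and a chain of 7 overlapping groups with means of 4.95 FPKM or less lay between these and the last 3, which were cysts of days 14, 5 and 8.

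K-cadherin was the steadiest of the 4 cadherins in wild-type cells. CDH6 (ENSCAFG00000018951) read 104, 139.9, 122 and 134 FPKM at day 0, 99.9 and 104 FPKM at 24 h on matrigel, 123 and 122 FPKM on 3D day 3, 128 and 129 FPKM on day 5, 106 and 79.0 FPKM on day 8 and 105 FPKM in the day 14 library. On inserts it read 114, 139 and 101 FPKM on day 4 and 115, 117 and 125 FPKM on day 11. The 2D groups and 3D days 3 and 5 lay within or overlapped the day 0 range. Both 24 h libraries, at 99.9 and 103.6 FPKM, lay below the lowest day 0 library at 104.45 FPKM, but that difference did not pass. CDH6 fell by 0.44 ± 0.18 on 3D day 8 (adjusted p = 0.0361), but the day 8 and day 0 libraries overlapped. That call was lost with quantile normalization (-0.23, adjusted p = 0.308), with median-ratio scaling (-0.17, adjusted p = 0.384), without day 8 replicate 2 (-0.23, adjusted p = 0.401) and without day 0 replicate 2, 3 or 4 (adjusted p of 0.0845, 0.0512 and 0.0705). CDH6 exceeded CDH1 in all 7 3D libraries from day 3 on, by 1.07 to 1.44 times, while its ratio to CDH1 was 0.422 to 0.644 at day 0 and 0.544 to 0.763 on inserts.

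**Figure D1:**
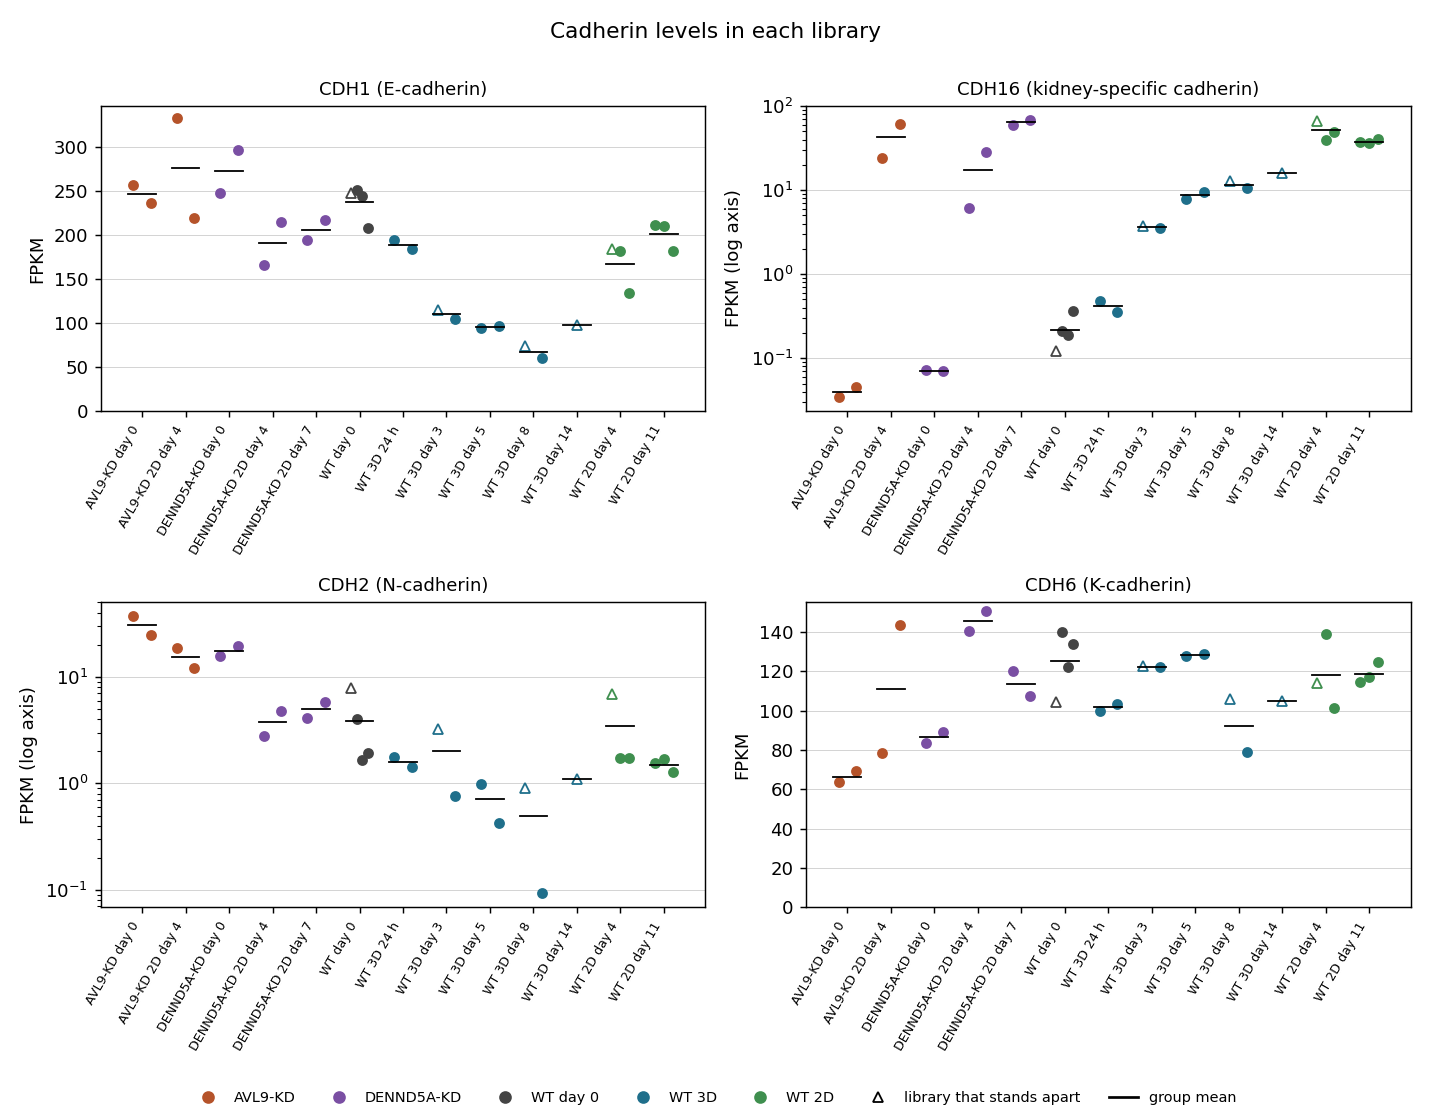
FPKM of the 4 cadherins in each of the 29 libraries by group, with group means as horizontal lines; CDH16 and CDH2 are on log axes, CDH1 and CDH6 on linear axes from 0, and triangles mark the 5 libraries that stand apart. CDH1 falls along the 3D groups to 73.8 and 60.2 FPKM on day 8 while CDH16 climbs to 12.7 and 10.5 FPKM, and the 2D groups hold the highest wild-type CDH16.

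Setting E-, N- and kidney-specific cadherin against each other within each library, E-cadherin remained the largest of the 3 in every library. Of their summed FPKM, CDH1 made up 98.3 ± 1.05% (SD, n = 4) at day 0, 84.7 ± 0.424% (SD, n = 2) on 3D day 8, 75.1 ± 5.53% (SD, n = 3) on 2D day 4 and 83.5 ± 1.85% (SD, n = 3) on 2D day 11. The share of CDH16 was 14.7 ± 0.211% on 3D day 8, 23.4 ± 4.95% on 2D day 4 and 15.8 ± 1.90% on 2D day 11, against 0.0944 ± 0.0541% at day 0. The share of CDH2 was 0.580 ± 0.635% on 3D day 8, 1.46 ± 1.05% on 2D day 4 and 0.625 ± 0.0558% on 2D day 11, against 1.57 ± 1.08% at day 0. The ratio of CDH1 to CDH16 was 574 to 2048 at day 0, 5.73 to 5.80 on 3D day 8 and 2.70 to 4.60 on 2D day 4. CDH16 and CDH2 changed places, with a ratio of CDH16 to CDH2 of 0.0153 to 0.186 at day 0, 0.247 to 0.274 at 24 h, 1.13 to 4.60 on 3D day 3 and 14.1 to 113 on 3D day 8. On inserts this ratio was 9.61 to 28.6 on day 4 and 21.3 to 31.4 on day 11.

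These balances were tested as the difference in log2(FPKM + 1) between a pair of cadherins in each library, with exact two-sided permutation tests over libraries and adjustment over 9 tests. CDH16 minus CDH1 averaged -3.44 ± 0.97 (SD) in 6 cyst libraries of days 3, 5 and 8, against -7.61 ± 0.24 in 4 day 0 libraries, a difference of 4.17 (adjusted p = 0.0171, exact permutation). In 6 2D libraries it averaged -2.03 ± 0.48, a difference of 5.58 from day 0 (adjusted p = 0.0171, exact permutation). The difference between cysts and 2D cultures was -1.41 (adjusted p = 0.0195, exact permutation), though the cyst range of -4.63 to -2.41 overlapped the 2D range of -2.51 to -1.41. CDH16 minus CDH2 averaged 2.13 ± 1.21 in cysts and 3.84 ± 0.41 in 2D cultures, against -1.83 ± 0.88 at day 0, differences of 3.96 and 5.68, and cysts differed from 2D cultures by -1.71 (adjusted p = 0.0171 for all 3, exact permutation). The last pair overlapped, at 0.14 to 3.40 in cysts and 3.09 to 4.21 in 2D cultures. That difference no longer passed with a pseudocount of 0.1 (adjusted p = 0.247, exact permutation) or as a share of the pair (adjusted p = 0.224, exact permutation). Without the 5 libraries that stand apart, each of these differences for CDH16 had an adjusted p of 0.0857 (exact permutation). With so few libraries the adjusted p of cysts or of 2D cultures against day 0 could not fall under 0.05, whatever the difference. Their p therefore does not show whether those differences held. CDH2 minus CDH1 averaged -5.57 ± 0.48 in cysts and -5.87 ± 0.70 in 2D cultures, against -5.78 ± 0.74 at day 0, and none of its 3 differences passed (exact permutation p of 0.6, 0.886 and 0.405). With all libraries, the smallest p the tests allow is 0.00952 against day 0 and 0.00216 between cysts and 2D cultures. The time points pooled in these tests differ among themselves, so their spread includes change over time.

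**Figure D2:**
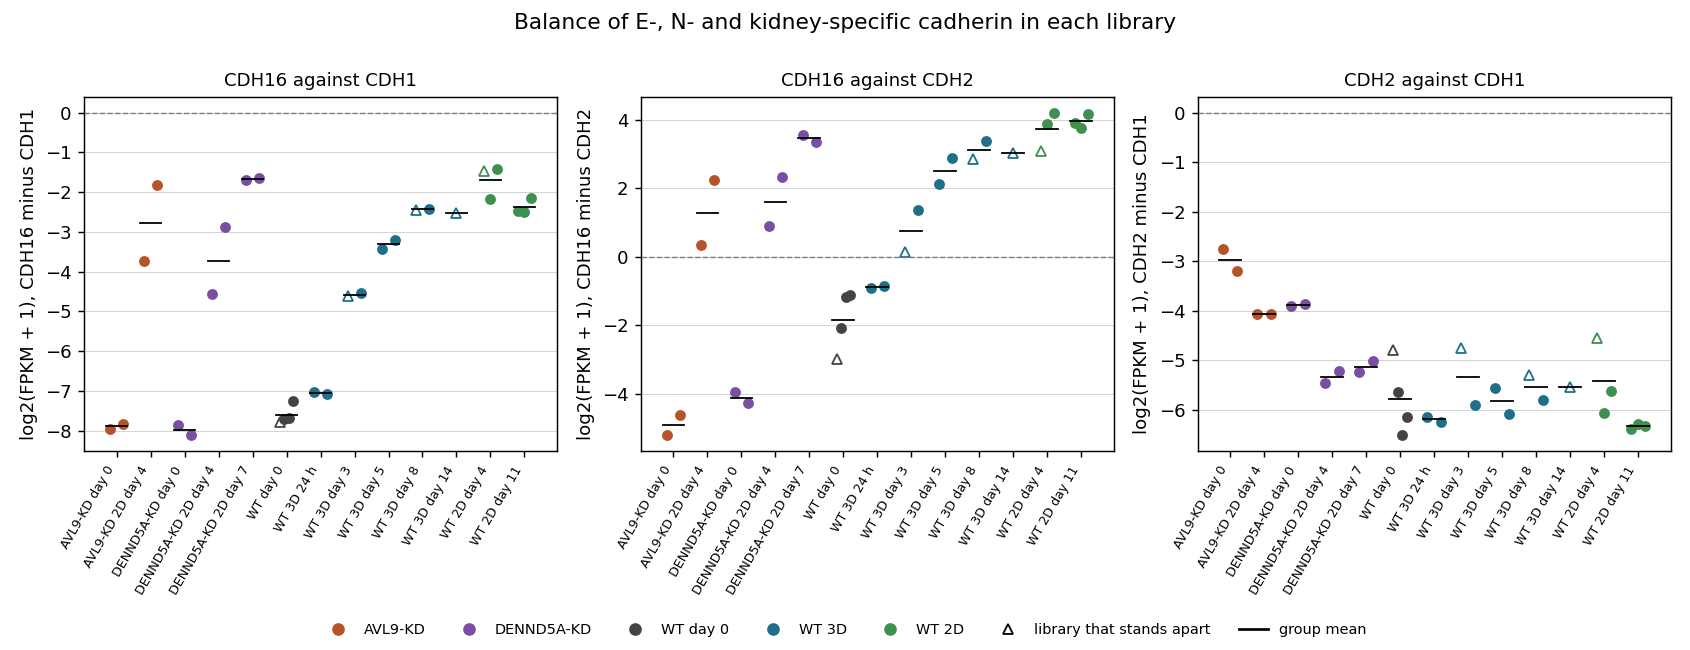
Difference in log2(FPKM + 1) between pairs of cadherins in each library by group (horizontal lines, group means; triangles, libraries that stand apart; dashed line, equal levels). CDH16 passes CDH2 between 24 h and day 3 of 3D culture and lies above it in every wild-type 2D library, while both stay below CDH1 in every library.

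Beta-catenin rose in both kinds of culture, and it was highest in cysts. CTNNB1 (ENSCAFG00000005204) read 166, 202, 180.5 and 193 FPKM in wild-type cells at day 0 and 225 and 229 FPKM at 24 h on matrigel. It read 622 and 579 FPKM on 3D day 3, 686 and 669.9 FPKM on day 5, 679 and 552 FPKM on day 8 and 772 FPKM in the day 14 library. On inserts it read 426, 377 and 312 FPKM on day 4 and 361, 358 and 324 FPKM on day 11. Every library of either culture was above all day 0 libraries, and every 3D library from day 3 on was above every 2D library. The log2 fold change against day 0 was 1.69 ± 0.14 on 3D day 3, 1.87 ± 0.14 on day 5 and 1.72 ± 0.14 on day 8 (adjusted p of 3.86e-08, 5.16e-09 and 6.18e-09). On inserts it was 0.99 ± 0.13 on day 4 (adjusted p = 1.23e-06) and 0.90 ± 0.13 on day 11 (adjusted p = 5.59e-06). At 24 h the difference was 0.29 ± 0.14 and did not pass (adjusted p = 0.379), although the groups did not overlap. The 4 highest of the 13 groups for CTNNB1 were cysts of days 14, 5, 8 and 3. The ratio of CTNNB1 to CDH1 was 9.17 and 9.19 on 3D day 8 and 1.70 to 1.78 on 2D day 11, against 0.672 to 0.931 at day 0.

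The other 3 catenins, which share the cadherin tail or the link to actin with beta-catenin, were lower on 3D day 8. Alpha-catenin, CTNNA1 (ENSCAFG00000001315), read 129 and 108 FPKM on 3D day 8, against 183, 204, 199 and 181 FPKM at day 0. P120 catenin, CTNND1 (ENSCAFG00000007767), read 46.9 and 39.3 FPKM on 3D day 8, against 68.9, 87.7, 80.6 and 79.7 FPKM at day 0. Plakoglobin, JUP (ENSCAFG00000015912), which serves both adherens junctions and desmosomes, read 94.5 and 75.4 FPKM on 3D day 8, against 119, 150.0, 142 and 133 FPKM at day 0. For each of the 3, both day 8 libraries were below all 4 day 0 libraries. They fell by 0.69 ± 0.11 (CTNNA1, adjusted p = 2.52e-05), 0.86 ± 0.13 (CTNND1, adjusted p = 6.79e-06) and 0.68 ± 0.13 (JUP, adjusted p = 0.000149). CTNND1 had already fallen by 0.51 ± 0.13 on day 3 (adjusted p = 0.00212) and by 0.53 ± 0.13 on day 5 (adjusted p = 0.00132). CTNNA1 fell by 0.34 ± 0.11 on day 5 (adjusted p = 0.0137), a call lost without either day 5 library (adjusted p of 0.0522 and 0.0689). On day 3 its difference of -0.22 ± 0.11 did not pass (adjusted p = 0.117), but it did with quantile normalization (-0.34) and median-ratio scaling (-0.21). JUP read 116 and 137 FPKM on day 3 and 108 and 122 FPKM on day 5, and neither difference passed (-0.11 ± 0.13, adjusted p = 0.522, and -0.23 ± 0.13, adjusted p = 0.132). CTNNA1 read 203, 209 and 168 FPKM on 2D day 4 and 224, 224 and 203 FPKM on day 11. CTNND1 read 70.5, 80.5 and 62.9 FPKM on 2D day 4 and 103, 106 and 81.9 FPKM on day 11. JUP read 134, 146 and 113 FPKM on 2D day 4 and 169.9, 165 and 151 FPKM on day 11. The day 11 libraries of JUP lay just above those of day 0, and those of CTNNA1 and CTNND1 overlapped them. CTNND1 rose by 0.29 ± 0.11 on 2D day 11 (adjusted p = 0.0343), which was lost without the 5 libraries (0.22, adjusted p = 0.122) and without day 0 replicate 1 or 3 or day 11 replicate 1 or 2 (adjusted p of 0.0505 to 0.161). For JUP the day 11 difference was 0.26 ± 0.11 (adjusted p = 0.0657), and it passed with quantile normalization (0.33, adjusted p = 0.0104), median-ratio scaling (0.24, adjusted p = 0.0204) and the replicate block by duplicateCorrelation (0.25, adjusted p = 0.0496). The ratio of JUP to CTNNB1 was 0.137 and 0.139 on 3D day 8 and 0.463 to 0.471 on 2D day 11, against 0.690 to 0.788 at day 0.

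**Figure D3:**
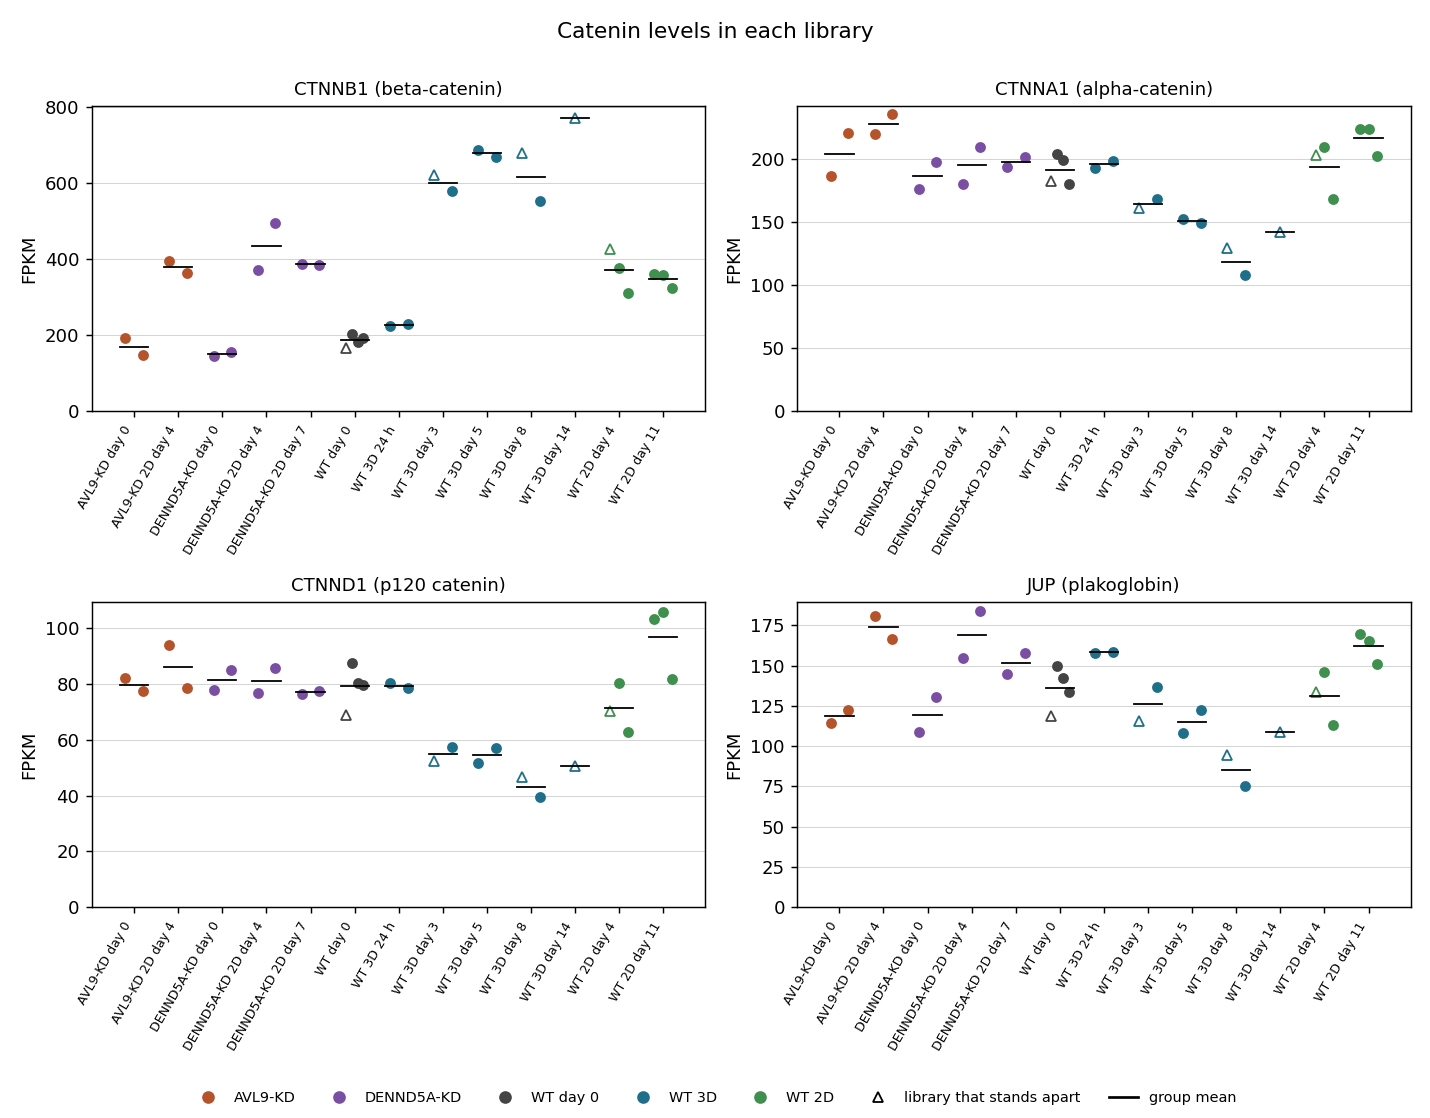
FPKM of the 4 catenins in each library by group on linear axes from 0 (horizontal lines, group means; triangles, libraries that stand apart). CTNNB1 stands at 552 to 772 FPKM in cysts from day 3 on and at 312 to 426 FPKM in wild-type 2D cultures, while CTNNA1, CTNND1 and JUP have their lowest values on 3D day 8.

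Counted over the wild-type comparisons, 0 of the 8 genes passed the limma test at 24 h, where 1.19% of all tested genes did, and 0 of the 8 had an unadjusted p under 0.05. On 3D day 3, 4 of 8 passed against a background of 51.0% of all genes, and on day 5, 6 of 8 against 57.6%. On 3D day 8 all 8 passed against a background of 62.8%, with 2 genes higher (24.7% of all genes) and 6 lower (38.0% of all genes). With median-ratio scaling, 4225 genes were higher and 3516 lower on day 8, against 2911 and 4478 as deposited. On 2D day 4, 3 of 8 passed against 59.9% of all genes, and on 2D day 11, 3 of 8 against 55.9%. Between 2D days 11 and 4, 0 of 8 passed, against 2.08% of all genes, and CTNND1 and JUP had an unadjusted p under 0.05 in limma. With replicate number as a block, CTNND1 passed in that comparison (0.44, adjusted p = 0.027). All of these comparisons except that of 2D days 11 and 4 share the day 0 libraries. No share of all genes is given here for an unadjusted p under 0.05.

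Cysts and 2D cultures were also set against each other directly, as the mean of 3D days 3, 5 and 8 minus the mean of 2D days 4 and 11. Of the 8 genes, 7 passed, against 56.9% of all tested genes. CTNNB1 alone was higher in cysts (22.1% of all genes were), and 6 were lower (34.8% of all genes were). With quantile normalization 3573 genes were higher and 3605 lower, against 2602 and 4094 as deposited. CDH16 was lower in cysts by the most, with a log2 difference of -2.44 ± 0.24 (adjusted p = 1.01e-07). CDH1 was lower with -1.03 ± 0.11 (adjusted p = 2.26e-07), CTNND1 with -0.70 ± 0.08 (adjusted p = 1.05e-06), CTNNA1 with -0.51 ± 0.08 (adjusted p = 1.13e-05) and JUP with -0.44 ± 0.09 (adjusted p = 0.000261). CTNNB1 was higher by 0.81 ± 0.10 (adjusted p = 7.85e-07). CDH2 was lower by 0.73 ± 0.31 (adjusted p = 0.048), with overlapping libraries, as JUP also had. The CDH2 call was lost without 3D day 3 replicate 2, either day 5 library, day 8 replicate 2, 2D day 4 replicate 1 or any day 11 library (-0.81 to -0.47), but not without the 5 libraries that stand apart (-0.82, adjusted p = 0.00345). CDH6 differed by -0.06 ± 0.12, with a 95% interval of -0.31 to 0.18.

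In both knockdowns N-cadherin was higher than in wild-type cells at day 0, while E-cadherin was not detectably different. CDH2 read 37.2 and 24.7 FPKM in AVL9-KD cells and 15.6 and 19.5 FPKM in DENND5A-KD cells, against 7.88, 4.05, 1.67 and 1.94 FPKM in wild-type cells. All 4 knockdown libraries were above all wild-type libraries, including the one that stands apart. The log2 fold change was 2.86 ± 0.46 in AVL9-KD cells (adjusted p = 0.000275) and 2.09 ± 0.46 in DENND5A-KD cells (adjusted p = 0.00713) in limma. The DENND5A-KD call was lost when either of its libraries was left out (adjusted p of 0.0569 and 0.13), with log2 fold changes of 2.25 and 1.94. CDH1 read 256 and 236 FPKM in AVL9-KD cells and 248 and 296 FPKM in DENND5A-KD cells, with log2 differences from wild type of 0.05 (95% interval -0.28 to 0.39) and 0.19 (95% interval -0.15 to 0.53). CDH6 read 63.5 and 69.4 FPKM in AVL9-KD cells and 83.7 and 89.2 FPKM in DENND5A-KD cells, all below the lowest wild-type library at 104 FPKM. It fell by 0.89 ± 0.18 in AVL9-KD cells (adjusted p = 0.00178), and the difference of -0.52 ± 0.18 in DENND5A-KD cells did not pass (adjusted p = 0.104). CDH16 read 0.0345 and 0.0451 FPKM in AVL9-KD cells and 0.0717 and 0.0697 FPKM in DENND5A-KD cells, below all wild-type libraries but at levels where log2(FPKM + 1) hardly moves (-0.23 ± 0.36 and -0.18 ± 0.36). CDH2 made up 11.1 ± 2.28% (SD, n = 2) of the summed FPKM of CDH1, CDH2 and CDH16 in AVL9-KD cells and 6.06 ± 0.171% (SD, n = 2) in DENND5A-KD cells, against 1.57 ± 1.08% (SD, n = 4) in wild-type cells. The 4 catenins passed in neither knockdown at day 0, except that JUP was called lower in AVL9-KD cells with quantile normalization (-0.43, adjusted p = 0.0193) and median-ratio scaling (-0.34, adjusted p = 0.0208), against -0.19 ± 0.13 as deposited. In all, 2 of the 8 genes passed in AVL9-KD cells, against 18.0% of all genes, and 1 of 8 in DENND5A-KD cells, against 5.52%.

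On day 4 on inserts N-cadherin was again higher in AVL9-KD cells, and so was E-cadherin, while kidney-specific cadherin was lower in DENND5A-KD cells. Plakoglobin was called higher in AVL9-KD cells as deposited but not with either other scaling. CDH2 read 18.9 and 12.1 FPKM in AVL9-KD cells and 2.81 and 4.76 FPKM in DENND5A-KD cells, against 6.88, 1.74 and 1.73 FPKM in wild-type cells. Only the AVL9-KD libraries were above all wild-type libraries, and the log2 fold change was 2.05 ± 0.48 (adjusted p = 0.00566), against 0.27 ± 0.48 in DENND5A-KD cells (adjusted p = 0.803). CDH1 read 332 and 219 FPKM in AVL9-KD cells, against 184, 182 and 134 FPKM in wild-type cells, and was higher by 0.71 ± 0.17 (adjusted p = 0.0068). CDH16 read 6.09 and 28.2 FPKM in DENND5A-KD cells, against 66.1, 39.6 and 49.6 FPKM in wild-type cells, and was lower by 1.84 ± 0.38 (adjusted p = 0.00303). The AVL9-KD libraries, at 24.2 and 60.8 FPKM, overlapped wild type. JUP read 181 and 167 FPKM in AVL9-KD cells, against 134, 146 and 113 FPKM in wild-type cells, a difference of 0.41 ± 0.14 (adjusted p = 0.0383). It was not called with quantile normalization (0.17, adjusted p = 0.385) or median-ratio scaling (0.16, adjusted p = 0.305). Median-ratio scaling moved the median of all genes by -0.21 in this comparison. In DENND5A-KD cells JUP read 155 and 184 FPKM, also above all wild-type libraries, and the difference of 0.37 ± 0.14 (adjusted p = 0.093) was called with quantile normalization (0.43, adjusted p = 0.0222) and median-ratio scaling (0.40, adjusted p = 0.0102). Each of the 4 calls depended on single libraries. Without AVL9-KD replicate 1, CDH1 differed by 0.41 (adjusted p = 0.176) and CDH2 by 1.75 (adjusted p = 0.0772). Without DENND5A-KD replicate 1, CDH16 differed by -0.82 (adjusted p = 0.189). JUP was no longer called without AVL9-KD replicate 1 or 4 or wild-type replicate 1 or 3 (0.31 to 0.47). With AVL9-KD, 3 of 8 genes passed, against 21.0% of all genes, and with DENND5A-KD, 1 of 8, against 11.3%.

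Within the knockdowns, the move to inserts brought the same direction for CDH16 and CTNNB1 as in wild-type cells. Unless a block is named, the values here come from the fit by group, which does not pair libraries by knockdown number. CDH16 rose by 5.25 ± 0.42 in AVL9-KD cells and by 3.75 ± 0.42 in DENND5A-KD cells between day 0 and day 4 (adjusted p of 7.64e-09 and 1.91e-06). CTNNB1 read 394 and 362 FPKM at day 4, against 193 and 146 FPKM at day 0, in AVL9-KD cells, a rise of 1.17 ± 0.16 (adjusted p = 7.77e-06). In DENND5A-KD cells it read 372 and 494 FPKM at day 4, against 145 and 155 FPKM at day 0, a rise of 1.51 ± 0.16 (adjusted p = 1.55e-06). CDH2 fell by 1.98 ± 0.53 in DENND5A-KD cells (adjusted p = 0.00525, but 0.0525 without day 4 replicate 1), and in AVL9-KD cells the change of -0.96 ± 0.53 did not pass (adjusted p = 0.133) but did with the replicate number as a fixed block (adjusted p = 0.0113). CDH1 fell by 0.52 ± 0.19 in DENND5A-KD cells (adjusted p = 0.0315), which was lost without day 0 replicate 2 (adjusted p = 0.221) or day 4 replicate 1 (adjusted p = 0.263). CDH6 rose by 0.75 ± 0.20 in DENND5A-KD cells (adjusted p = 0.00603) and by 0.67 ± 0.20 in AVL9-KD cells (adjusted p = 0.00884), the second of which was lost without day 4 replicate 4 (0.24, adjusted p = 0.32) or day 0 replicate 1 (adjusted p = 0.0569). JUP rose in both, by 0.50 ± 0.15 and 0.55 ± 0.15 (adjusted p of 0.0116 in DENND5A-KD and 0.00458 in AVL9-KD cells), and the DENND5A-KD call was lost without day 0 replicate 1 (adjusted p = 0.129) or day 4 replicate 2 (adjusted p = 0.132). Of the 8 genes, 4 passed in AVL9-KD cells (53.9% of all genes) and 6 in DENND5A-KD cells (42.3% of all genes). Between days 7 and 4 of DENND5A-KD cells on inserts, 0 of 8 passed in limma, against 0.0510% of all genes, and CDH16 had an unadjusted p under 0.05. It read 59.7 and 68.6 FPKM on day 7, against 6.09 and 28.2 FPKM on day 4, a difference of 2.18 ± 0.42 (adjusted p = 0.0566) that passed with the replicate number as a block (adjusted p = 0.0196). The tests of whether the change onto inserts differed from wild type passed for 0 of 8 genes in limma for either knockdown, against 1.22% of all genes for AVL9-KD and 1.83% for DENND5A-KD. At an unadjusted p under 0.05 in limma there were 3 genes for AVL9-KD (CDH1, CDH6 and JUP) and 5 for DENND5A-KD (CDH2, CDH6, CDH16, CTNNB1 and JUP). The share of all genes at that looser threshold is not given here, so these counts are not read as a result. With the number as a fixed block, CDH1 passed for AVL9-KD (0.72, adjusted p = 0.0476) and CDH2 for DENND5A-KD (-1.64, adjusted p = 0.028).

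**Figure D4:**
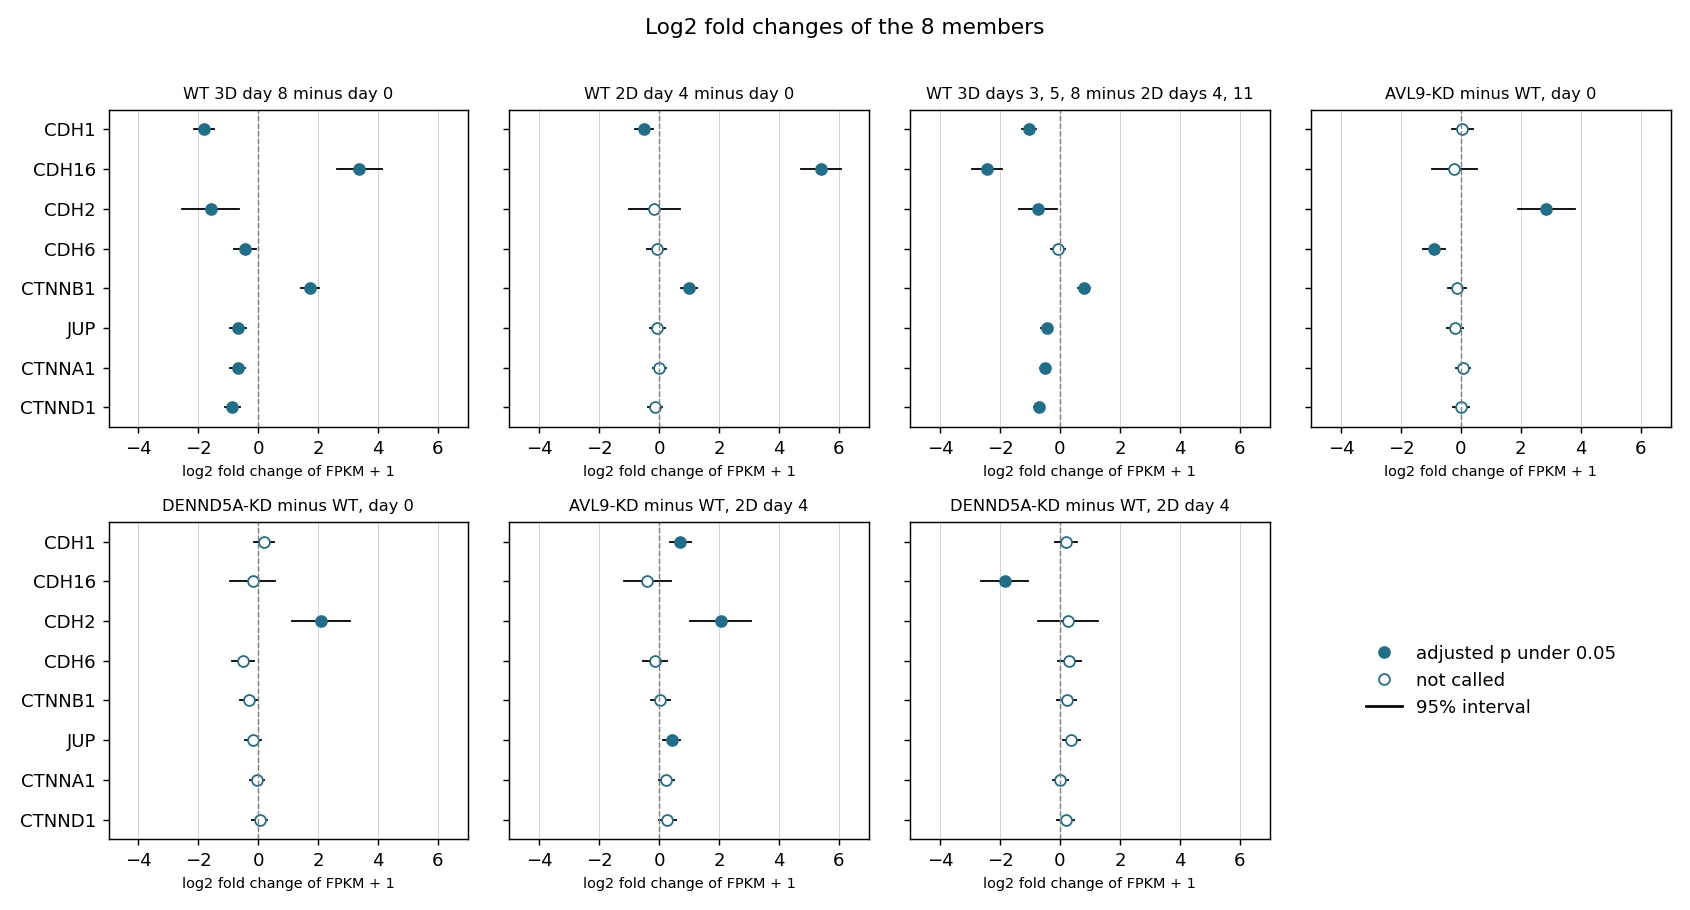
Log2 fold changes of FPKM + 1 for the 8 genes in 7 comparisons, with 95% intervals as lines and filled points for adjusted p under 0.05 (limma). CTNNB1 and CDH16 are the 2 genes to the right of 0 on 3D day 8, and CDH2 is the gene farthest to the right in both knockdowns at day 0.

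Other genes of cell adhesion were taken from 7 lists. Their counts on 3D day 8 stand beside 24.7% of all tested genes higher, 38.0% lower and a median log2 fold change of -0.13. Of 18 other cadherins, 3 were tested and the other 15 stayed under 1 FPKM in every library, 8 of them at 0 throughout. On 3D day 8, 2 of the 3 fell, with a median of -1.40. CDH3, or P-cadherin, averaged 0.779 FPKM on day 8, against 10.7 FPKM at day 0 (log2 fold change -2.72 ± 0.29, adjusted p = 1.52e-07), and CDH17, or LI-cadherin, averaged 6.01 against 16.9 FPKM (-1.40 ± 0.29, adjusted p = 0.000282). In AVL9-KD cells at day 0, CDH3 was higher by 1.32 ± 0.29 (adjusted p = 0.00432, but 0.116 without AVL9-KD replicate 1) and CDH17 lower by 2.33 ± 0.29 (adjusted p = 1.62e-05). CDH17 was also lower in DENND5A-KD cells at day 0, by 1.33 ± 0.29 (adjusted p = 0.00657), a call lost without either DENND5A-KD library (adjusted p of 0.0883 and 0.0858). The third, CDH24, averaged 3.42 FPKM in AVL9-KD and 5.01 FPKM in DENND5A-KD cells at day 0, against 9.26 FPKM in wild-type cells, and was lower by 1.22 ± 0.10 (adjusted p = 1.41e-07) and 0.77 ± 0.10 (adjusted p = 7.19e-05). Among 12 tested catenin relatives and partners, 3 rose and 4 fell on 3D day 8 (median -0.17), shares close to those of all genes. CTNNAL1, an alpha-catenin relative, rose by 0.79 ± 0.13 (adjusted p = 3.4e-05). TJP1, the tight junction scaffold ZO-1, fell by 1.40 ± 0.12 (adjusted p = 8.76e-09) and the actin crosslinker ACTN4 by 1.07 ± 0.12 (adjusted p = 2.51e-07). CTNND2, a p120 relative best known from neurons, averaged 1.04 FPKM in DENND5A-KD and 0.917 FPKM in AVL9-KD cells at day 0, against 0.208 FPKM in wild-type cells (0.76 ± 0.11 and 0.67 ± 0.11, adjusted p of 0.000251 and 0.000571).

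The desmosome genes, which share plakoglobin with the adherens junction, showed 7 of 10 lower and 1 higher on 3D day 8, with a median log2 fold change of -1.28 against -0.13 over all tested genes. Desmoplakin, DSP, averaged 10.5 FPKM on day 8, against 45.5 FPKM at day 0 (-2.04 ± 0.17, adjusted p = 7.95e-09), and desmoglein 2, DSG2, 31.9 against 88.7 FPKM (-1.45 ± 0.12, adjusted p = 6.18e-09). Envoplakin, EVPL, rose on 3D day 8 by 0.88 ± 0.19 (adjusted p = 0.000512) and on 2D day 4 by 2.04 ± 0.17 (adjusted p = 5.36e-09). On 2D day 4, 6 of the 10 fell and 3 rose, where 59.9% of all genes were called in either direction. Of 5 tested nectin and afadin genes, 4 fell on 3D day 8 and none rose (median -1.34 against -0.13 over all genes), with PVR, a nectin-like receptor, at a mean of 2.56 FPKM on day 8, against 14.3 FPKM at day 0 (adjusted p = 5.57e-10), and afadin, listed as MLLT4, lower by 1.34 ± 0.16 (adjusted p = 5.15e-07).

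Among 9 tested transcription factors that repress or maintain epithelial cadherins, 1 rose and 3 fell on 3D day 8 (median -0.33 against -0.13 over all genes), and 3 rose and 3 fell on 2D day 4 (median -0.27, with 59.9% of all genes called). SNAI2, known as a repressor of E-cadherin, averaged 0.617 FPKM on 3D day 8 and 3.71 FPKM on 2D day 4, against 6.73 FPKM at day 0, and so fell by 2.26 ± 0.20 (adjusted p = 1.19e-08) and 0.76 ± 0.17 (adjusted p = 0.000857). In AVL9-KD cells at day 0, SNAI1, another repressor of E-cadherin, was higher by 1.38 ± 0.25 (adjusted p = 0.000788), and that call was lost without AVL9-KD replicate 1 (adjusted p = 0.0531). ZEB1, ZEB2, TCF4 and TWIST2 stayed under 1 FPKM in every library. Of 8 tested genes of cadherin turnover, 1 rose and 4 fell on 3D day 8 (median -0.14 against -0.13 over all genes), with the sheddase ADAM10 lower by 0.45 ± 0.12 (adjusted p = 0.00267), a call lost with median-ratio scaling (-0.19, adjusted p = 0.115) and without day 8 replicate 2 (adjusted p = 0.052). Of 5 tested genes of the beta-catenin destruction complex and its ubiquitin ligase, 2 rose and 3 fell on 3D day 8 (median -0.61 against -0.13 over all genes). GSK3B, the kinase that marks beta-catenin for degradation, fell by 1.03 ± 0.13 (adjusted p = 1.27e-06), and AXIN2, a Wnt target that feeds back on the complex, rose by 0.61 ± 0.17 on 3D day 8 (adjusted p = 0.00368, but 0.0876 without the 5 libraries) and by 1.34 ± 0.15 on 2D day 4 (adjusted p = 2.06e-07).

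As a description over the 13 group means of log2(FPKM + 1), which share libraries and in which genes are not independent, CDH1 ran with CTNND1 (Pearson r = 0.94) and CTNNA1 (r = 0.92) and against CTNNB1 (r = -0.82). CTNNA1 and CTNND1 were the closest pair among the 8 genes (r = 0.96). CDH16 had r = 0.62 with CTNNB1 and r = -0.21 with CDH1, and CDH6 had r = -0.56 with CDH2. Among 6917 genes with a symbol of their own and a mean of at least 5 FPKM, those most like CDH1 were RDX (r = 0.990), GOLGA4 (r = 0.988), TCF20 (r = 0.985) and TRIM25 (r = 0.983). Those most like CDH2 were GALNT3 (r = 0.965), PMP22 (r = 0.964), PAPD4 (r = 0.956) and TIGD1 (r = 0.951). Those most like CDH16 were SYT11 (r = 0.979), SUSD6 (r = 0.979), PKD2 (r = 0.977) and SEPN1 (r = 0.976). PKD2, which encodes polycystin-2 of the tubule's primary cilium, averaged 7.16 FPKM on 3D day 8 and 10.7 FPKM on 2D day 4, against 3.66 FPKM at day 0.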

How the data were processed

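The authors deposited 1 file of FPKM values per library, 29 in all. The submitters' processing notes name HISAT2 2.1.0, Cufflinks 2.2.1 and the builds CanFam3.1 and canFam3, without saying what each did. Per the labels, libraries came from a stranded mRNA kit. Further scaling between libraries is not given in the sources used here, and the depth in reads is unknown. Relative depth (day 0 replicate 2 set to 1) came from steps between low values, under 0.15 FPKM, and no 2 libraries were identical.

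Log2(FPKM + 1) of genes that reached 1 FPKM in 2 libraries or more was fitted with limma 3.58.1 (trend, R 4.3.3) over all 29 libraries and 13 group means, with 17 contrasts, two-sided tests and Benjamini-Hochberg adjustment over 11774 genes. Cadherin balances were tested by exact permutation (scipy 1.17.1). No test was run on the single day 14 library. Python 3.11.15 with pandas 2.3.3, numpy 2.4.6 and matplotlib 3.10.9 did the rest, and the fits were tested on simulated data. Members, lists and tests were chosen with earlier results of these data known. Named genes were the 8 members, the 4 genes most like CDH1, CDH2 and CDH16, and, from each list in each contrast described, up to 2 called genes in each direction with the smallest adjusted p, of which some are not reported here. CDH16 stands for kidney-specific cadherin, and no coordinates or sequences were used here.

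Whether replicate numbers pair libraries was checked from the correlation of deviations from group means. In wild-type groups, 19 of 41 same-number pairs had r over 0.1, against 14 of 96 pairs with different numbers. Wild-type numbers were not taken to pair, though these counts do not show that they do not pair. Among the same-number pairs, those of 2 libraries that stand apart had r of 0.399 to 0.558. In groups of 2 libraries the deviations mirror each other, so 3D days 3 and 8 gave 0.472 for the first and again for the second replicates. The knockdown numbers stand in the names of the knockdowns and were read as pairing libraries, with r of 0.358 for AVL9-KD and 0.0101 to 0.0966 for DENND5A-KD. The main fit nonetheless held group only, so no libraries were paired in it. Replicate numbers entered only the fits with a replicate block.

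The results were recomputed with 2 other scalings (quantile, median-ratio), another pseudocount (0.1), without the filter, with a replicate block, with only the compared groups in the fit, and without each library in turn or the 5 that stand apart.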

Additional observations from a re-analysis of the deposited data

Results flagged for a closer look

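Plakoglobin (JUP) lay on opposite sides of day 0 in different wild-type cultures. It read 94.5 and 75.4 FPKM in the day 8 cysts, below all 4 day 0 libraries at 119 to 150.0 FPKM, and 158 and 159 FPKM in the 24 h cultures, above all of them. The log2 difference between day 8 and 24 h was -0.90 and was not tested. The 2D day 11 libraries, at 151 to 169.9 FPKM, were also above all day 0 libraries, and the log2 difference between 3D day 8 and 2D day 11 was -0.93, likewise not tested. Of these groups, 3D day 8 passed against day 0 in limma and the other two did not as deposited, but 2D day 11 passed with quantile normalization, median-ratio scaling and the replicate block by duplicateCorrelation (adjusted p of 0.0104, 0.0204 and 0.0496).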

How the results depend on the processing

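Of 136 fold changes of the 8 genes, none changed direction where called, and a pseudocount of 0.1 moved no call. Quantile normalization gained 7 calls and lost 3, median-ratio scaling gained 8 and lost 2, fitting the groups of a contrast alone lost 12 and no expression filter lost 1. The replicate block gained 4 calls by duplicateCorrelation and lost none. As a fixed term, which was not fitted for the comparisons of knockdown with wild type, it gained 9 and left 95 as they were. For 2D day 11 against day 0, 5 genes were called with quantile normalization and with either replicate block and 6 with median-ratio scaling, against 3. For 2D day 11 against day 4, 1 gene was called with either block, against 0. For DENND5A-KD on 2D day 7 against day 4, 1 was called with quantile normalization, median-ratio scaling and either block, against 0. It was also called with a term for the libraries that stand apart, the day 14 library left out. For the DENND5A-KD interaction, 1 was called with median-ratio scaling, the fixed block and that term, and for the AVL9-KD interaction 1 with the fixed block. With the groups alone, 0 were called for DENND5A-KD against wild type at day 0 and on 2D day 4 and for AVL9-KD on 2D day 4, against 1, 1 and 3, and for DENND5A-KD on 2D day 4 both scalings called 2. Leaving out 1 library gave 0 to 1 called genes for 2D day 11 against day 4, both DENND5A-KD comparisons with wild type, DENND5A-KD day 7 against day 4 and both interactions, and 0 to 3 for AVL9-KD on 2D day 4. The share of all genes called in each setting is not given beside these counts. The counts are therefore not read as a result about the 8 genes.

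Without the 5 libraries, CDH16 minus CDH1 differed from day 0 by 4.15 in cysts and 5.41 in 2D cultures, and between them by -1.25. CDH16 minus CDH2 then differed by 3.89, 5.44 and -1.55, all with an adjusted p of 0.0857 (exact permutation) over fewer libraries. The adjusted p of cysts or of 2D cultures against day 0 could then not fall under 0.05, whatever the difference. With all libraries, CDH16 minus CDH2 differed between cysts and 2D cultures by -1.23 with a pseudocount of 0.1 (adjusted p = 0.247, exact permutation). As a share of the pair it differed by -9.88 percentage points (adjusted p = 0.224, exact permutation), and the cause was not tested. Counts over all genes moved by over 1.5 times, between the lowest and highest alternative, from 140 at 24 h (16 to 310), 245 between 2D days 11 and 4 (0 to 590), 650 (207 to 877) and 1334 (97 to 2069) for DENND5A-KD at day 0 and 2D day 4, 2118 (342 to 2745) and 2474 (25 to 3328) for AVL9-KD, 6346 (3502 to 6940) and 4983 (3315 to 5689) for AVL9-KD and DENND5A-KD over time, 6 between days 7 and 4 (0 to 213), and 144 (15 to 270) and 215 (45 to 459) for the AVL9-KD and DENND5A-KD interactions. For AVL9-KD, 1578 genes were higher and 540 lower at day 0 (1068 and 1152 with median-ratio scaling) and 2199 and 275 on 2D day 4 (903 and 884). That scaling moved the median of all genes by 0.11 on 3D day 5, 0.20 on 3D day 8, and -0.11 and -0.21 for AVL9-KD at day 0 and 2D day 4. Absolute depth is unknown, so no counting error stands beside the FPKM values, low ones of CDH16 and CDH2 included.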
